A study of Mus musculus with 48 samples.

Results

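Cells of P19, a line from a mouse embryonic teratoma, were compared in 2 of the 4 signalling states of an ATAC-seq study, 1 h Activin and untreated. ATAC-seq maps open chromatin by the places where a transposase can insert sequencing adapters into DNA. The members are all regions with a deposited peak in either of these 2 lists. When the peaks of all 4 lists were joined wherever they overlapped by at least 1 bp, 261786 of 287329 regions met this rule. Of these, 183283 regions had a peak in both lists, 45850 (17.5%) had a peak at 1 h Activin and none in untreated cells, and 32653 (12.5%) had a peak in untreated cells and none at 1 h Activin. The first of the unshared groups is called 1 h-only and the second untreated-only, whatever the other lists hold.

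Untreated cells had no inhibitor and no added ligand, and they signal continuously through the NODAL and GDF3 that they make. For 1 h Activin, cells were kept overnight in 10 µM SB-431542, washed with PBS and given 20 ng/ml Activin in full medium for 1 h, and for 8 h Activin the same was done for 8 h. For the SB-431542 state, cells were washed in the same way and returned to 10 µM SB-431542 in full medium for 1 h. The labels list 48 libraries, 12 per state from 2 biological replicates, and the authors called peaks on alignments merged by state, though which libraries entered each merged file is not given in the sources used here. There is therefore 1 list per state with no spread between replicates, so no test between states was made and every difference below describes these merged lists. 1 h Activin cells differed from untreated cells in the overnight inhibitor, the washes, the change of medium and the added ligand at once, and these cannot be told apart in this pair.

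NODAL and Activin bind type I and type II receptor kinases, which phosphorylate SMAD2 and SMAD3. The phosphorylated SMADs join SMAD4, enter the nucleus and act at enhancers with DNA-binding partners such as FOXH1. SB-431542 blocks the type I receptors. AP-1 is a dimer of FOS and JUN family proteins, many of which are induced within minutes by serum and growth factors, and TEAD factors recruit the coactivators YAP and TAZ. ZIC, OCT and TCF/LEF proteins are DNA-binding factors of pluripotent and early embryonic cells, and TCF/LEF proteins act downstream of WNT signalling.

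The first set of sequences comes from regions among the 10 strongest of the 1 h-only regions that also had a peak with SB-431542, and shows a motif found in more of these regions than of the untreated-only ones. All sequences are from the plus strand of the mouse GRCm38 assembly, the same coordinates as mm10, and capitals mark every match to the AP-1 consensus TGANTCA on either strand.
Mycn, 41.3 kb upstream, chr12:12983079-12983199: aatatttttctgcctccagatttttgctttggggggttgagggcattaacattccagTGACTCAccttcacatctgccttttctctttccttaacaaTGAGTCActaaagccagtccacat
Grb10 intron, chr11:11939797-11939917: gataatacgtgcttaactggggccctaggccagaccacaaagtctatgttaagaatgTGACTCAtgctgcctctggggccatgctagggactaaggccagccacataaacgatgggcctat
Nox4, 5.3 kb upstream, chr7:87241326-87241446: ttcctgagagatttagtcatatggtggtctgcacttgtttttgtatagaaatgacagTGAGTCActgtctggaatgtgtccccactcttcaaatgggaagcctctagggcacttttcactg
Of the 10 strongest regions of this group, 7 held an AP-1 match in their central 300 bp.

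The second set comes from regions that ranked higher in untreated cells than at 1 h Activin or had no 1 h peak, and capitals mark matches to ZIC (CAGCAGG) or OCT (ATTTGCAT) on either strand. The *Strap* window holds a ZIC match, the *Dnajc1* window an OCT match, and the *Eomes* and *Axin2* windows a ZIC match each.
Strap, 2.5 kb upstream, chr6:137732465-137732585: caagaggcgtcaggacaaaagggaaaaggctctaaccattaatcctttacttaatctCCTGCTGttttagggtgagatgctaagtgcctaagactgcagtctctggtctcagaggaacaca
Dnajc1, 20.6 kb upstream, chr2:18413350-18413470: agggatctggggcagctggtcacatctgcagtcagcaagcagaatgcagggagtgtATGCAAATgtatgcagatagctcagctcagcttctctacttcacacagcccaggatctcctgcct
Eomes, 44.95 kb upstream, chr9:118433216-118433336: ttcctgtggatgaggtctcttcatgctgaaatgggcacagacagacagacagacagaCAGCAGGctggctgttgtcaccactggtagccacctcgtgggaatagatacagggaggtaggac
Axin2, 42.5 kb upstream, chr11:108877687-108877807: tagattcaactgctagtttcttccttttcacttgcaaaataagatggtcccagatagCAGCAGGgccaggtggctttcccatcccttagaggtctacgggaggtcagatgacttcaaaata
These windows were chosen because they hold a match. Of the 10 strongest untreated-only regions without an SB-431542 peak, 2 held a ZIC and 0 an OCT match. Of the 10 strongest with one, 1 held a ZIC and 1 an OCT match. ZIC was also in 2 of the 10 strongest 1 h-only regions without an SB-431542 peak and in 0 of the 10 with one. A match describes these letters and does not show that a factor was bound.

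For each peak the lists give a fold enrichment, which is read pileup over background around the peak, and the -log10 of a q value. Where a region's fold enrichments follow each other without names, they are in the order SB-431542, 1 h Activin, 8 h Activin, untreated. The 1 h Activin list held 233336 peaks over 186 Mb and the untreated list 220004 peaks over 176 Mb. Relative depth at 1 h Activin, read from the lowest background in each list, was 109% of that in untreated cells, and the SB-431542 list was the deepest and the 8 h Activin list the shallowest. The promoters of *Pou5f1*, *Sox2*, *Nanog*, *Utf1* and *Dnmt3b*, genes of pluripotent cells, had a peak in all 4 lists. Of 9 blood, muscle and liver genes, *Cd3e*, *Myog*, *Alb*, *Apoa1* and *Ttr* had no peak over the promoter in any list, and *Ptprc*, *Spi1*, *Myod1* and *Actn2* had one in all 4.

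The question put to the pair was which open regions of the self-signalling state had not returned 1 h after the inhibitor was removed, and which remained from the inhibited state. Among 30383 regions with a peak in untreated cells and none with SB-431542, 29.7% had a peak at 1 h Activin (95% Wilson interval 29.2 to 30.2) and 40.1% at 8 h Activin (39.5 to 40.6). Over all 215936 untreated regions these shares were 84.9% and 84.0%. Strength separated these lists further. Of the 225 regions with an untreated -log10 q of 20 or more, 31.1% (25.4 to 37.4) had a peak at 1 h Activin and 88.9% (84.1 to 92.4) at 8 h Activin. Of the 1271 regions with a -log10 q from 10 to 20, the shares were 22.0% (19.8 to 24.3) and 74.7% (72.2 to 77.0). Over all untreated regions of that strength they were 93.9% and 97.6%. Among the 12847 weakest regions, below 2.5, they were 33.2% and 28.4%, beside 64.3% and 51.6% over all untreated regions below 2.5. Strong regions of the self-signalling state that the inhibited cells lacked were thus mostly without a peak at 1 h Activin and mostly with one at 8 h Activin. The 225 strongest were few among all 59823 untreated regions with a -log10 q of 20 or more. Of those 59823, the 1 h list held 99.5% and the 8 h list 99.9%. Intervals cover counting error alone.

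The opposite set, 44680 regions with a peak with SB-431542 and none in untreated cells, showed the reverse order. At 1 h Activin 61.8% of them had a peak (61.4 to 62.3), and at 8 h Activin 26.6% (26.2 to 27.0). Of the 1333 regions with an SB-431542 -log10 q of 20 or more, 98.9% (98.2 to 99.3) had a peak at 1 h Activin and 44.3% (41.6 to 46.9) at 8 h Activin. For comparison, of all 70474 SB-431542 regions of that strength, 98.1% had a peak in untreated cells and 98.6% at 8 h Activin, so most strong regions were open in every state. The 1 h list held 99.96% of the same 70474, so the 98.9% was not above the share for strong regions in general. Of all 230233 SB-431542 regions, whatever their strength, 87.7% overlapped the 1 h list and 78.7% the 8 h list. The 61.8% and 26.6% both lay below these shares. Neither the 1 h nor the 8 h Activin list was used to choose these sets.

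**Figure D1:**
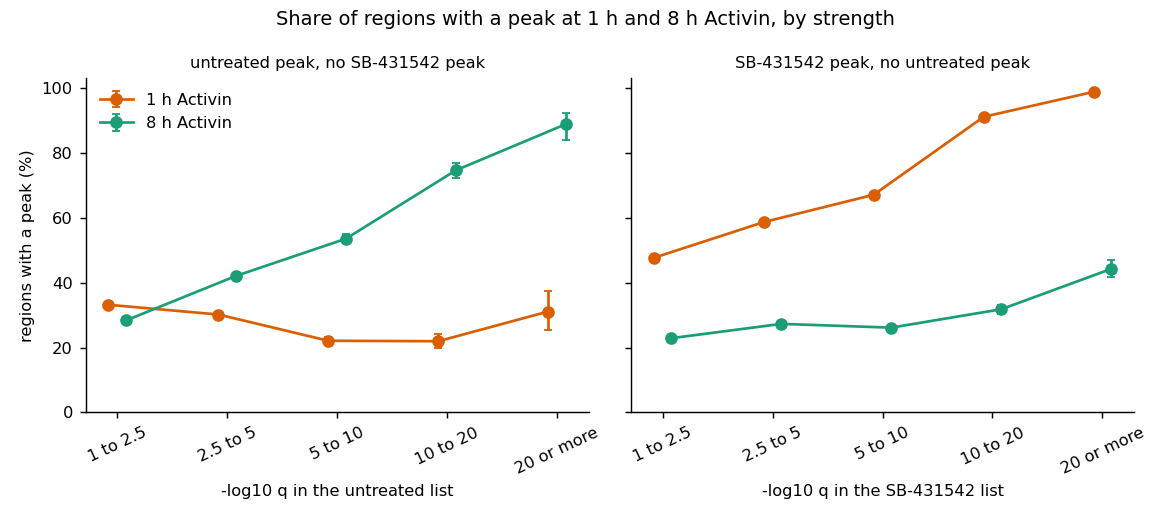
Share of regions with a peak at 1 h and 8 h Activin (y axis, percent, 95% Wilson intervals) by -log10 q class (x axis), for regions with a peak in untreated cells and none with SB-431542 (left) and for the opposite set (right). In the strongest class 31.1% of the left set and 98.9% of the right set had a peak at 1 h Activin.

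Of the 45850 1 h-only regions, 60.2% (59.8 to 60.7) had a peak with SB-431542 and 25.4% (24.98 to 25.78) at 8 h Activin. Of the 32653 untreated-only regions, 34.6% (34.0 to 35.1) had a peak with SB-431542 and 43.9% (43.3 to 44.4) at 8 h Activin. Over all regions in either list the shares were 81.4% and 73.7%, so both unshared groups lay below them. The 18233 1 h-only regions without an SB-431542 peak were weak, with a median -log10 q of 1.92 and 5.45% at 5 or more. The 27617 with such a peak had a median -log10 q of 3.67 and 35.0% at 5 or more. The larger number of 1 h-only regions did not hold under other list lengths. With lists cut to equal length the counts were 36469 1 h-only and 36353 untreated-only, and with peaks of -log10 q of 5 or more they were 22961 and 25268.

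Few unshared regions were promoters. Promoters, taken as 1000 bp before a transcription start site to 100 bp after it, made up 0.613% of 1 h-only regions (0.545 to 0.689), 0.845% of untreated-only regions (0.752 to 0.951) and 5.13% of regions in both lists. The median distance to the nearest start was 89.0 kb for 1 h-only, 52.7 kb for untreated-only and 55.1 kb for regions in both lists. Among the 1 h-only regions it was 116 kb without an SB-431542 peak and 73.6 kb with one.

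None of the 10 strongest 1 h-only regions with an SB-431542 peak was a promoter, 6 being intergenic, 3 intronic and 1 exonic. The region 41.3 kb upstream of *Mycn*, a MYC family gene of embryonic cells, had fold enrichments of 5.18, 6.63 and 2.17, with no untreated peak (chr12:12982799-12983535). The region 24.4 kb upstream of *Nrp2*, a semaphorin and VEGF co-receptor, had 6.97, 6.89 and 4.33 (chr1:62678345-62679391). The region in *Aspa*, which encodes aspartoacylase, lay 6.0 kb inside the gene in an intron, with 7.34, 6.89 and 2.32 (chr11:73318267-73318964). SB-431542 and 1 h Activin both lay above 8 h Activin in all 3 regions.

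Upstream of *Nox4*, an NADPH oxidase gene, the values were 5.51, 5.79 and 2.19 (chr7:87241148-87241567). An intron of *Cacnb4*, a calcium channel subunit gene, had 7.23, 6.96 and 2.83 (chr2:52609396-52609888). The *Grb10* intron region, in a gene for an adaptor of the insulin receptor, had 4.43 and 4.70 and no peak at 8 h Activin (chr11:11939636-11940051). The region 3.4 kb upstream of *Noct*, a deadenylase-family gene under circadian control, had 3.45 and 3.50 and none at 8 h Activin (chr3:51220836-51221221), and an exon of *Bhlhe40*, a transcriptional repressor, had 2.82 and 2.81 and none (chr6:108665578-108666252). Of the 10 strongest regions in this group, 6 still had a peak at 8 h Activin.

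The 10 strongest 1 h-only regions without an SB-431542 peak, by -log10 q, all had a fold enrichment under 1.5, from 1.21 to 1.49, on an estimated background of 927 reads per bp or more. The intron of *Chd7*, a chromatin remodeller, led them, with a fold enrichment of 1.21 and a -log10 q of 226 (chr4:8695931-8696496). None of them had a peak at 8 h Activin. Such low fold enrichment was uncommon among strong peaks, at 13 of the 792 1 h-only regions and 11 of the 296 untreated-only regions with a -log10 q of 20 or more.

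In untreated-only regions without an SB-431542 peak, 4 of the 10 strongest also had a fold enrichment under 1.5, and the other 6 had a peak at 8 h Activin. A region far upstream of *Csmd1*, a gene for a complement-control membrane protein, had 7.75 at 8 h Activin and 4.66 in untreated cells (chr8:17834860-17835739). An intron of *Kdm1b*, a histone lysine demethylase gene, had 2.47 and 4.81 (chr13:47074945-47075896), and the region upstream of *Strap*, which encodes a serine/threonine kinase receptor associated protein, had 2.528 and 2.501 (chr6:137732277-137732864). All of these lacked a peak both with SB-431542 and at 1 h Activin.

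Untreated-only regions with a weaker SB-431542 peak were led by an intron of *Ralgapa2*, a Ral GTPase-activating protein gene. With no 1 h peak, its values were 2.39 for SB-431542, 4.53 for 8 h Activin and 6.38 for untreated (chr2:146250441-146250933). The region 5.0 kb upstream of *Elf5*, an ETS factor of trophoblast and epithelium, had 1.93, 2.16 and 4.97 (chr2:103406810-103407392). The region 20.6 kb upstream of *Dnajc1*, a DnaJ co-chaperone gene, had 2.28, 3.09 and 4.51 (chr2:18413233-18413561). All 10 of the strongest regions in this group had an 8 h Activin peak, and in each of these 3 the order was SB-431542, 8 h Activin, untreated.

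Regions in both lists were compared by percentile, so that a shift does not depend on the scale of a list. The highest fold enrichment in a region was ranked, list by list, against 162505 regions that all 4 lists shared, and the difference is the 1 h Activin minus the untreated percentile. By this measure 35884 of 183283 shared regions (19.6%) were over 10 points higher at 1 h Activin and 37753 (20.6%) over 10 points lower, with a median difference of 0.11. Since fold enrichment depends on the local background, the pileup itself was also estimated from the fold enrichment and the p value and ranked in the same way. Of the regions over 10 points higher, 74.5% were also over 10 points higher by pileup, and of those over 10 points lower, 74.6% were also lower.

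Among regions in all 4 lists, untreated and 1 h Activin were over 10 points apart at 40.4%, the most of the 6 pairs of lists. SB-431542 and 1 h Activin were that far apart at 23.5%, the fewest, and untreated and 8 h Activin at 31.0%. Peak width differed little between the lists of the pair. The median length covered in a shared region was 702 bp in the 1 h list and 684 bp in the untreated list, and 7.21% were over 2-fold wider at 1 h Activin and 5.83% over 2-fold wider in untreated cells.

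To place these shifts, the 162505 regions in all 4 lists were classed by the 8 h Activin minus the SB-431542 percentile, a difference in which neither list of the pair takes part. In 30322 opening regions, over 10 points higher for 8 h Activin than for SB-431542, the median percentile was 35.2 at 1 h and 47.2 in untreated cells. The lists that chose the class had medians of 30.7 for SB-431542 and 53.0 for 8 h Activin. The median of 1 h Activin minus untreated was -8.69 points, with 46.7% of these regions over 10 points lower at 1 h Activin and 9.78% over 10 points higher. The 14172 regions of this class over 10 points lower at 1 h Activin are called not yet restored.

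In the 29986 closing regions, over 10 points lower for 8 h Activin than for SB-431542, the median was 48.7 at 1 h and 36.0 in untreated cells, beside 52.5 and 30.6 in the SB-431542 and 8 h lists that chose them. Here the median of 1 h Activin minus untreated was 8.90 points, with 47.4% over 10 points higher at 1 h Activin and 11.3% over 10 points lower. The 14224 higher regions are called retained. Both names describe the order of the lists alone. SB-431542 and 1 h Activin cells shared the inhibitor, the washes and the fresh full medium, and the cause of either pattern was not tested. In the remaining 102197 regions the median was 0.23 points. At 1 h the median region had moved 3.68 points from its SB-431542 percentile in the opening class, against 12.7 points for untreated cells, and -3.73 against -13.3 points in the closing class. The SB-431542 list helped to choose both classes, so these last 4 values are not independent of that choice. By pileup the medians of 1 h Activin minus untreated over the same regions were -6.73 and 7.21.

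**Figure D2:**
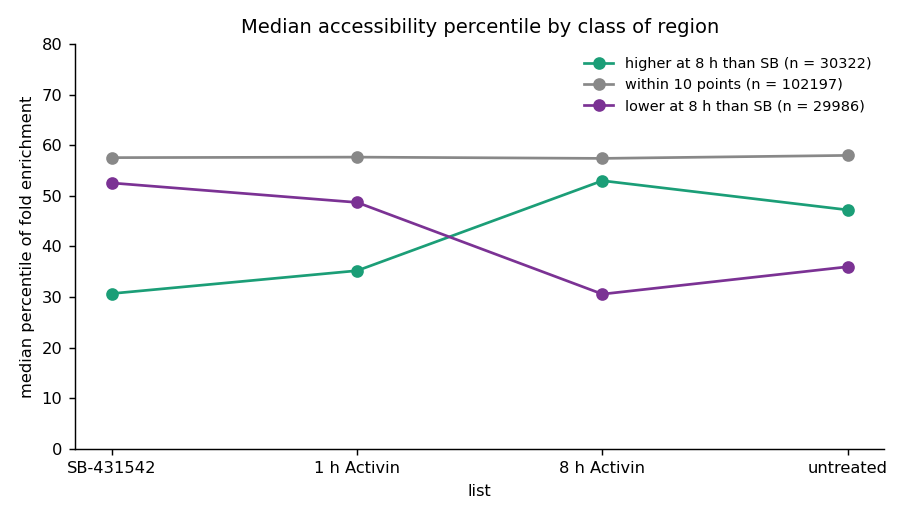
Median percentile of fold enrichment (y axis) in each of the 4 lists (x axis) for shared regions that opened by over 10 points from SB-431542 to 8 h Activin, stayed within 10 points, or closed by over 10 points. The opening class had a median of 35.2 in the 1 h list and 47.2 in the untreated list, and the closing class 48.7 and 36.0.

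The shared regions with the largest differences were intronic or intergenic for the most part, and none was a promoter. An exon of *1110002L01Rik* had fold enrichments of 6.83, 6.79, 2.99 and 1.80 (chr12:3405512-3406986). The region 5.1 kb upstream of *Adrb3*, a beta-adrenergic receptor gene, had 4.84, 5.09, 2.09 and 1.61 (chr8:27234027-27235258). At the other end, an intron of *Stambpl1*, a deubiquitinase gene, had no SB-431542 peak and then 1.66, 2.99 and 4.31 (chr19:34213979-34214629). An intron of *Gmds*, which encodes a GDP-mannose dehydratase, likewise had no SB-431542 peak and then 1.53, 3.65 and 3.96 (chr13:31981251-31981924). In 19 of the 20 largest and smallest differences 8 h Activin had a peak, with a fold enrichment between those of the pair. Since these regions were chosen by the difference within the pair, the pattern is a description.

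Motif content differed between the groups, in a search of 16 consensus sequences, none of which contains another, on both strands of the central 300 bp. AP-1 was in 12.0% of all regions and in 9.93% of regions in both lists. It was in 27.5% of 1 h-only regions with an SB-431542 peak (27.0 to 28.0), in 15.5% of those without one (15.0 to 16.1) and in 7.35% of untreated-only regions without an SB-431542 peak (7.004 to 7.704). Among the 3316 1 h-only regions with a -log10 q of 10 or more the share was 51.9% (50.2 to 53.6), and among the 2233 untreated-only regions of that strength 6.58% (5.63 to 7.69).

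In shared regions the AP-1 share was higher the further 1 h Activin lay above untreated. It was 16.1% for those over 10 points higher at 1 h Activin, 27.2% over 30 points and 38.2% over 50 points, against 7.96%, 8.02% and 9.17% for the same steps lower. The share was 21.3% (20.6 to 21.9) in the retained regions and 7.69% (7.26 to 8.14) in those not yet restored. As counts, a match was in 3024 of the 14224 retained and 4802 of all 29986 closing regions. It was in 1090 of the 14172 not yet restored and 2374 of all 30322 opening regions. TEAD (GGAATG) was in 18.5% of all regions, in 23.9% of 1 h-only regions with an SB-431542 peak, in 29.6% of 1 h-only regions with a -log10 q of 10 or more and in 13.8% of untreated-only regions of that strength. SOX (ACAATGG) was in 5.23% of all regions and in 9.86% and 5.91% of the 2 strong groups.

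Read from the motif rather than from the group, 31.7% of 18208 shared regions with an AP-1 match were over 10 points higher at 1 h Activin, beside 19.6% of all shared regions, and 16.5% were over 10 points lower, beside 20.6%. Over those in all 4 lists, their median percentile was 53.2 at 1 h and 45.9 in untreated cells, beside 52.4 for SB-431542 and 45.9 for 8 h Activin. In the closing class the median of 1 h Activin minus untreated was 16.1 points for regions with an AP-1 match and 7.77 points for the 25184 without one.

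ZIC, OCT, FOX and FOXH1 were in a larger share of the strong untreated-only than of the strong 1 h-only regions. ZIC was in 11.7% of all regions, in 18.9% (18.04 to 19.80) of the 7616 regions found in untreated cells and at 8 h Activin alone, in 19.5% (17.9 to 21.2) of the strong untreated-only regions and in 12.1% (11.1 to 13.3) of the strong 1 h-only regions. TCF/LEF (CTTTGA) was in 20.1% of all regions and in 25.1% (24.1 to 26.1) of those found in untreated cells and at 8 h Activin alone, but its shares in the strong groups lay close together, at 22.7% (21.0 to 24.5) untreated-only and 22.2% (20.8 to 23.6) 1 h-only. OCT was in 2.73% of all regions, in 5.06% (4.23 to 6.05) of the strong untreated-only and in 2.59% (2.11 to 3.19) of the strong 1 h-only regions. FOX (GTAAACA) was in 4.34%, 6.94% and 3.23% of these groups and FOXH1 (AATNCACA) in 5.61%, 7.26% and 5.07%. The other motifs searched were the GATA factor motif (AGATAA), in 15.3% of all regions, E-box (CACGTG) in 3.19%, KLF (GGGTGTGG) in 2.70%, T-box (AGGTGTGA) in 1.41%, and SRF (CCATATTAG or CCTTATATG), SMAD (GTCTAGAC), CREB (TGACGTCA) and NRF1 (GCGCATGCG), each in under 1%. Median GC content of the windows was 46.7% for 1 h-only regions with an SB-431542 peak and 46.7% for untreated-only regions without one. It was 44.7% for 1 h-only regions without an SB-431542 peak and 47.3% for regions found in untreated cells and at 8 h Activin alone.

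**Figure D3:**
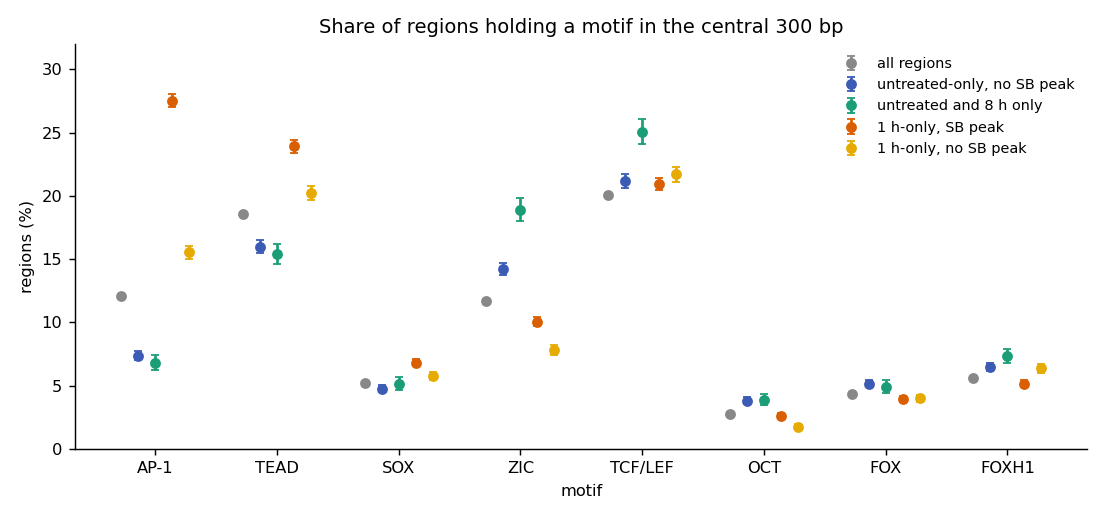
Share of regions (y axis, percent, 95% Wilson intervals) that hold each of 8 motifs (x axis) in the central 300 bp, for all regions and 4 groups. AP-1 was in 27.5% of 1 h-only regions with an SB-431542 peak and in 7.35% of untreated-only regions without one, and ZIC in 18.9% of regions found in untreated cells and at 8 h Activin alone.

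At the loci of NODAL/Activin target genes the regions did not move as one. Apart from promoters, each region named at a locus is the shared region within 60 kb with the largest or the smallest difference. These regions were chosen by the difference within the pair, so their order is a description. The region 44.95 kb upstream of *Eomes*, a gene for a T-box factor of mesendoderm, lay in an intron of *4933432G23Rik* and had fold enrichments of 3.25, 3.95, 8.08 and 7.25, a difference of -17.4 points within the pair (chr9:118432627-118433852). The region 37.0 kb upstream of *T*, the mesoderm factor brachyury, lay in an intron of *T2* and had 2.04, 2.14, 2.75 and 4.05, a difference of -47.6 points (chr17:8396190-8398764). The untreated list had 2 peaks in the *T* region, and by the width-weighted mean of its peaks the difference was -12.3 points. At both, the highest fold enrichment at 1 h Activin was nearer to SB-431542 than to untreated cells. The promoter regions of these genes differed by 10.6 points for *Eomes* and -0.954 points for *T*, and by 1.59 and 3.14 points by pileup.

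*Pmepa1*, which encodes an inhibitor of TGF-β family signalling, had regions of both kinds. An intron region 18.3 kb downstream of its start had 2.01, 3.39, 3.55 and 2.33, with 1 h and 8 h Activin above SB-431542 and untreated cells. Its difference was 34.4 points, or 12.4 by pileup (chr2:173257593-173258910). Untreated cells lay above SB-431542, with a -log10 q of 19.7 against 5.2, on an estimated background of 69.7 against 29.3 reads per bp. A region 24.7 kb upstream had 1.73, 2.01, 2.61 and 2.74, a difference of -27.8 points (chr2:173300606-173301908). Within 60 kb of the start 5 shared regions were over 10 points higher, 4 over 10 points lower, 5 were untreated-only and 2 were 1 h-only.

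An intron region of *Wnt3*, a WNT ligand, with 2.45, 2.78, 3.34 and 1.81 and a difference of 49.7 points, had its lowest value in untreated cells (chr11:103797818-103799002). *Smad7*, an inhibitory SMAD, had an intron region with 3.51, 3.19, 1.73 and 1.69 and a difference of 66.0 points, or 42.6 by pileup, where SB-431542 and 1 h Activin were high (chr18:75375377-75375988). The *Lefty1* promoter, of a NODAL antagonist, had 2.82, 3.00, 3.09 and 3.10 and differed by 1.15 points and by -1.94 by pileup. No peak lay over the *Lefty2* or the *Trh* promoter in any list. *Tbx3*, a T-box repressor, had an upstream region 13.1 kb from its start with 2.34, 2.79, 2.19 and 1.82, a difference of 49.3 points (chr5:119656625-119658893). These *Wnt3*, *Smad7* and *Tbx3* regions had the largest differences at their loci. The smallest were -35.8 points for *Wnt3*, -19.4 for *Smad7* and -21.3 for *Tbx3*. Median differences over shared regions there were 2.6, 7.7 and 4.5 points. At the *Lefty1* locus the largest was 29.8 points, 4.45 by pileup, and the smallest -8.07.

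**Figure D4:**
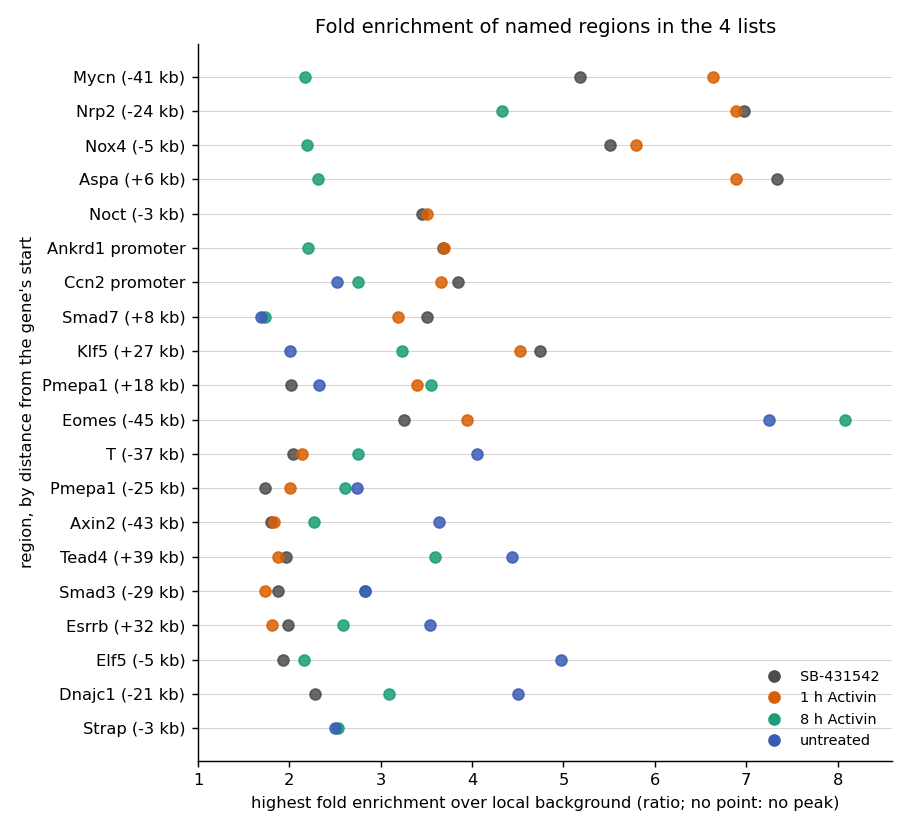
Highest fold enrichment (x axis, ratio to local background) in each of the 4 lists for 20 named regions (y axis, with distance from the gene's start). Regions from *Mycn* to *Klf5* have SB-431542 and 1 h Activin on the right, and from *Eomes* down, 1 h Activin lies near SB-431542 or has no peak while untreated cells lie to the right. The regions were picked by their values or their locus, so this order is a description.

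Gene lists were counted over regions within 50 kb of a member's start, beside the shares over all regions given above, 19.6% of shared regions higher and 20.6% lower (16.7% and 17.4% by pileup), and 12.5% of all regions untreated-only and 17.5% 1 h-only. Near the 18 NODAL/Activin pathway genes and early targets, 39 of 177 shared regions were over 10 points higher at 1 h Activin (22.0%) and 28 over 10 points lower (15.8%), with a median difference of 2.39 points. By pileup the counts were 24 and 23 and the median -0.62 points. The region 28.7 kb upstream of *Smad3*, a receptor-activated SMAD, had 1.88, 1.73, 2.83 and 2.83 (chr9:63785919-63787550). Near the 16 delayed mesendoderm genes, 25 of 138 were higher (18.1%) and 30 lower (21.7%), with a median of -1.13 points, and 22 regions were untreated-only (13.0%) and 9 were 1 h-only (5.33%). By pileup 12 were over 10 points higher and 33 over 10 points lower. The 1 h-only share was below the 17.5% of all regions near every list but the YAP/TEAD targets. It was 10% near WNT feedback targets, 10.3% near neural genes, 10.8% near housekeeping genes and 11.2% near immediate early genes. Near BMP targets it was 12.6% and near NODAL/Activin genes 13.2%. The median 1 h-only region lay 89.0 kb from a start, outside the 50 kb window.

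Near the 12 WNT feedback targets, 34 of 127 shared regions were higher and 26 lower, but 17 and 23 by pileup. The region 42.5 kb upstream of *Axin2*, a scaffold of the β-catenin destruction complex, had 1.80, 1.83, 2.27 and 3.64, a difference of -61.0 points (chr11:108877491-108878175). A region 25.9 kb upstream of *Nkd1*, an inhibitor of WNT signalling, had 3.67, 4.39, 4.70 and 1.94 (chr8:88495114-88495815). Near the 14 pluripotency genes, 37 of 141 were higher and 22 lower, and 23 and 20 by pileup. Here 36 regions were untreated-only (19.05%) and 12 were 1 h-only (6.35%). The region 26.7 kb downstream of the *Klf5* start, a Krüppel-like factor gene, had 4.74, 4.53, 3.24 and 2.01 (chr14:99324501-99326237), and an intron of *Esrrb*, an orphan nuclear receptor gene, had 1.99, 1.81, 2.58 and 3.54 (chr12:86453273-86454103).

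Immediate early genes, which include *Fos*, *Jun* and *Egr1*, had 46 of 189 shared regions higher (24.3%) and 21 lower (11.1%) at 1 h Activin. By pileup, however, 17 were higher and 10 lower, with a median of -1.09 points. The region 35.2 kb upstream of *Klf6* had 3.74, 3.74, 2.92 and 2.03 (chr13:5826015-5826584). Near the 12 YAP/TEAD targets, 25 shared regions were higher and 18 lower, but 14 and 17 by pileup, and 28 regions were untreated-only (17.2%) and 32 were 1 h-only (19.6%). Near neural genes 24 of 104 were higher and 18 lower, but 12 and 14 by pileup. Near BMP targets 19 of 76 were higher and 8 lower, and 13 and 6 by pileup. Near housekeeping genes 12 of 94 were higher and 11 lower, but 6 and 12 by pileup.

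Promoters of the listed genes differed little in pileup. Of 117 with a peak in both lists, 33 were over 10 points higher and 2 over 10 points lower by fold enrichment, but only *Ccn2* and *Evx1* were over 10 points apart by pileup, and only *Ccn2* by both. *Ccn2*, a matricellular gene driven by YAP and TEAD, had 3.85, 3.66, 2.76 and 2.52, a difference of 31.0 points and of 32.8 by pileup (chr10:24595251-24596111). The promoter of *Ankrd1*, another YAP/TEAD target, had 3.68, 3.70 and 2.20 and no peak in untreated cells (chr19:36119750-36120415). It was the sole listed promoter present in 1 list of the pair alone, and it and *Evx1* are named here after their values were seen.

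Other listed promoters differed less by percentile of pileup. The *Pmepa1* promoter region had 3.11, 2.79, 3.72 and 3.89, a difference of -19.7 points and of -1.09 by pileup, on an estimated background of 125 reads per bp at 1 h Activin and 89.7 in untreated cells. *Wnt3a* differed by -28.4 points and by -5.27 by pileup. *Foxh1* was 27.8 points higher and 1.97 by pileup, and *Lef1* 20.1 and 2.48. Over all 9398 promoter regions in both lists, 10.5% were over 10 points higher and 4.35% lower by fold enrichment, and 4.04% and 3.76% by pileup. Outside promoters the shares were 20.1% and 21.5%, and 17.4% and 18.1% by pileup.

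**Figure D5:**
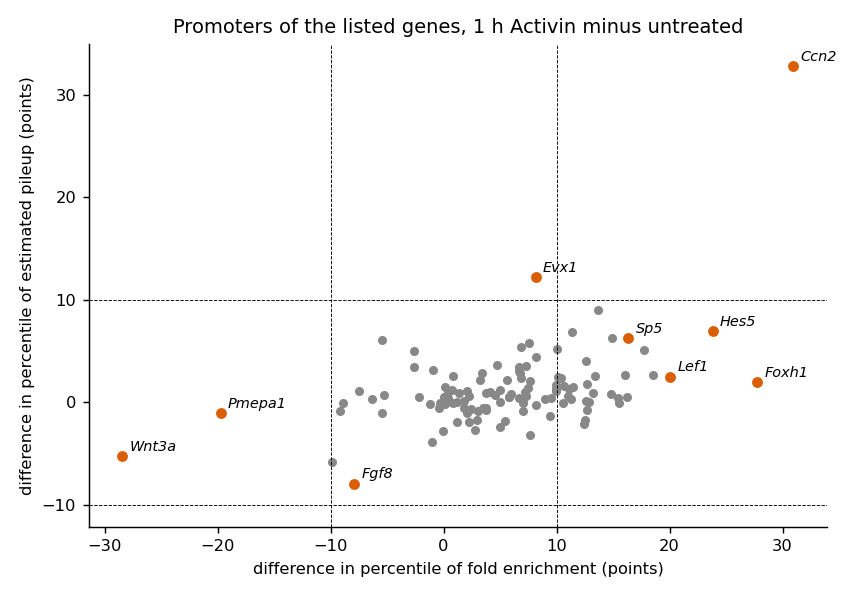
Difference between 1 h Activin and untreated cells at 117 promoters of listed genes, in percentile points of fold enrichment (x axis) and of estimated pileup (y axis), with dashed lines at 10 points. *Ccn2* lies over 10 points higher on both axes, and 115 promoters lie within 10 points by pileup.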

How the data were processed

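ATAC-seq reads were trimmed with cutadapt 1.9.1, aligned to mm10 with BWA 0.6.2, filtered, and merged by state by the authors. Their methods describe fewer libraries per experiment than the 48 that the labels list, and which of them entered each merged file is not given in the sources used here. Broad peaks were called by the authors with MACS2 2.1.1.20160309 without a control. Per state, the deposited list gives a score (not used), the fold enrichment, a ratio of pileup to local background, and the -log10 p and -log10 q. The lists hold no read totals, so depth was only compared through their lowest background.

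The 4 lists were merged at 1 bp of overlap (Python 3.11.15, pandas 2.3.3). Pileup was solved from fold enrichment and -log10 p, with 1 added to pileup and background. Genes and sequence came from RefSeq on GRCm38.p6, with 45756 transcripts of 26180 genes. Places were read at the centre of a region, so a region over a promoter can have its centre in an exon or intron.

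Named genes were those of 9 loci shown by the study, each by its promoter and its largest and smallest difference within 60 kb. Others were the nearest or host genes of the 10 strongest regions per unshared group and of the 10 largest and 10 smallest differences. The promoters and extremes of 9 gene lists were also named. Members and lists were chosen with earlier results of these data known. Alternatives were other list lengths, overlaps, scales, thresholds and motif windows. Leaving out regions with an AP-1 motif, a fold enrichment of 1.5 or more, and motif shares at -log10 q of 10 or at 30 and 50 points were added after seeing the data. Intervals (95%, Wilson) reflect counting error only.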

Additional observations from a re-analysis of the deposited data

How the results depend on the processing

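Each state is 1 merged list, so replicates could be neither compared nor left out, and depth limits which weak peaks were called. No paired analysis was possible because the lists pool both replicates of a state. Restricting every list to a -log10 q of at least 5 gave 22961 1 h-only regions and 24331 shared regions over 10 points lower, a median difference of -9.989 points in the opening class, an SB-431542 peak in 41.82% of untreated-only and 80.2% of 1 h-only regions, and an 8 h Activin peak in 45.3% and 23.08%. Lists of equal length gave medians of -8.985 and 9.154 points in the opening and closing classes, SB-431542 shares of 30.62% and 61.17%, and 8 h Activin shares of 51.02% and 31.25%. A threshold of 20 points left 14508 regions higher and 15280 lower. With classes and differences both taken on estimated pileup, the medians were -9.264 and 10.38, and on -log10 q the closing median was 9.772. Peak-by-peak overlap of at least 50 percent of the shorter peak put the SB-431542 share of 1 h-only regions at 59.4%. Without AP-1 regions, an alternative chosen after seeing the data, that share was 56.52%, the 8 h Activin share was 28.2% and the closing median was 7.766. Shared regions with 1 peak in each list had median widths of 680 bp in the 1 h list and 661 bp in the untreated list. In the central 200 bp, AP-1 was in 22.23% of 1 h-only regions with an SB-431542 peak and 4.815% of untreated-only regions without one, TEAD in 17.21% of the former, and ZIC and TCF/LEF in 14.27% and 18.07% of regions found in untreated cells and at 8 h Activin alone.

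Of the 87 named regions over 10 points apart, 8 changed direction by estimated pileup and 0 by -log10 q or by a width-weighted mean. Of the other 6, within 10 points, 3 changed sign by pileup, 2 by -log10 q and 1 by the mean. The pileup differences of the 8 were -1.506 points for the *Trh* region with the largest difference, -4.706 for that of *Mesp1*, 1.244 for the *Id1* region with the smallest, and -2.078, -1.757, -0.04738, -0.06215 and -0.7846 for the promoters of *Mesp1*, *Tcf7*, *Jun*, *Ier2* and *Dusp1*. The cause was not tested.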
